A study of Homo sapiens with 6 samples.

Results

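The genes described here are 42 cytokine receptor and JAK-STAT genes, taken as a fixed list of symbols and matched to the transcripts of 6 RNA-seq tables. All 42 were found among 27744 named genes, through 149 transcripts, and 38 of them passed the filter on low counts that left 14634 genes for testing. They comprise receptor chains, the kinase gene JAK2, the transcription factor gene STAT5A and the feedback and target genes SOCS1, SOCS3, CISH and PIM1. The members were chosen with earlier results of these data known.

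The RNA came from MUTZ3, an established human acute myelomonocytic leukaemia line with an inversion of chromosome 3, grown with medium conditioned by a bladder carcinoma line. All cells had been transduced with a p50MX retroviral construct and were collected at 72 h, and there were 2 libraries in each of 3 groups. The PLDLS group carried p50MX-3xFLAG-3xNLS-4xPLDLS-Zeo, whose peptide blocks the contact of the oncoprotein EVI1 with the CTBP corepressors per the labels. The PLASS group carried p50MX-3xFLAG-3xNLS-4xPLASS-Zeo, a similar peptide without that effect. The empty vector (EV) group held p50MX-3xFLAG in replicate 1 and p50MX-Zeo in replicate 2, so its libraries differ in vector and neither carries the whole backbone of the peptide constructs. The comparisons ask how blocking this contact changes expression. The labels do not say that the replicates were separate cultures, so the spread within each peptide group could be technical only. The spread within EV also holds the difference between its vectors. Each p-value over all 6 libraries is set against these spreads together.

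Cytokine receptors carry no kinase of their own in most families. In the families that use Janus kinases (JAK), ligand binding brings these kinases together, and they phosphorylate STAT transcription factors. STAT proteins then switch on target genes that include CISH, SOCS1, SOCS3 and PIM1. This outline does not cover the receptor kinases CSF1R, KIT and FLT3 or the IL-1 and IL-17 receptor chains, which are also members. The SOCS and CISH proteins act back on the receptor or kinase and limit the signal. In myeloid cells the receptors for GM-CSF, IL-3, G-CSF and M-CSF and the stem cell factor receptor KIT carry signals for survival, growth and maturation, and MUTZ3 depends on such cytokines in culture.

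Libraries held 5582078 to 35800826 estimated reads, lowest in PLDLS replicate 2, and the 42 genes took 0.318% to 0.367% of them. MECOM, which encodes EVI1, was at 342 to 605 CPM (read counts relative to library size, scaled by the TMM method) in the 4 peptide libraries and at 129 and 88.2 CPM in EV replicates 1 and 2. CTBP1 was at 115 to 146 CPM and CTBP2 at 127 to 176 CPM. The progenitor marker CD34 was at 515 to 904 TPM (a level scaled for transcript length and depth), the monocyte marker LYZ at 56 to 76.3 TPM and CD14 at 1.29 to 4.13 TPM. LTF of neutrophil granules, HBA1 and PF4 of the red cell and platelet lineages and MS4A1 of B cells were listed at 0 in every library. Some other markers on the same lists were present. MPO of neutrophil granules was at 35.3 to 101 TPM, ITGA2B of the megakaryocyte lineage at 66.3 to 120 TPM and CD79A of B cells at 7.32 to 16.2 TPM. In such bulk RNA, fewer cells of a type and less RNA per cell cannot be told apart.

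Start regions of CISH, IL9R and IL7R are printed because they show the STAT recognition letters in a feedback gene and the starts of the receptor genes that rose and fell most clearly. Each holds 250 bases before and 50 after a RefSeq gene start (assembly GRCh38.p14), written 5′ to 3′ along the gene. Capitals mark TTCNNNGAA, the STAT recognition letters, which read the same on both strands, and AGATAA on either strand (TTATCT on the other), the letters of the GATA-type site that EVI1 can bind. AGATAA was added to the search after the files were seen.
CISH (chr3:50611725-50612024, minus strand): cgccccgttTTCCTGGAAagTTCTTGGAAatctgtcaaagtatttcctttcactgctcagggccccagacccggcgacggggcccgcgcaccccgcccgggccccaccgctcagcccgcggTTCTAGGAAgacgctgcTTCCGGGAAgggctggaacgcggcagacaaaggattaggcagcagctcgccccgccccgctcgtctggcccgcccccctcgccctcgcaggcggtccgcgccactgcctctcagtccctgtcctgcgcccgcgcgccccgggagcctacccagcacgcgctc
IL9R (chrX:155997446-155997745, plus strand): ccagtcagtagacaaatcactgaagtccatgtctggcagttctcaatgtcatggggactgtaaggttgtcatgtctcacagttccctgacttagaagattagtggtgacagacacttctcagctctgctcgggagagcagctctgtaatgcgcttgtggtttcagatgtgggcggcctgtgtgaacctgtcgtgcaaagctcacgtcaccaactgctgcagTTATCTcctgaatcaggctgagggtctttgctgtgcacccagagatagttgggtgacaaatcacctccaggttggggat
IL7R (chr5:35856641-35856940, plus strand): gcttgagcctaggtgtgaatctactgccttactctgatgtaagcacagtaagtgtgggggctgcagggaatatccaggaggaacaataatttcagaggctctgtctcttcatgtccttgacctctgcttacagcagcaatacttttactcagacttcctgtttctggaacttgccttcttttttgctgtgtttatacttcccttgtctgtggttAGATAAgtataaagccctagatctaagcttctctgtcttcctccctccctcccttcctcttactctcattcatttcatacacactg
The CISH window held TTCNNNGAA 4 times, starting 241, 230, 129 and 112 bases before the gene start. At least 4 matches were found in 7 of 35116 windows of this length, or 0.02%, and at least 1 in 7.66%. Windows could be matched for 37 of the 42 genes, with 58 windows in all, since some genes have several starts. TTCNNNGAA was found in 7 of these 58 windows, from 6 genes (IL1R1, CISH, LIFR, IL15RA, IL10RB and IL3RA). IL9R and IL7R held none and each held AGATAA once, 29 and 36 bases before the start. At least 1 AGATAA was found in 7 of the 58 windows, from 7 genes, and in 10.3% of all windows. A match is a run of letters and no evidence of binding.

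Mean levels per length ran from 0 to 331 TPM. PIM1, a survival kinase gene and STAT5 target, had the highest mean at 331 TPM. It was followed by IL1RAP, the accessory chain of the IL-1 receptor (268 TPM), CSF2RB, the common beta chain of the GM-CSF, IL-3 and IL-5 receptors (173 TPM), CSF1R, the M-CSF receptor (166 TPM), STAT5A (153 TPM) and IFNGR1, a chain of the interferon gamma receptor (132 TPM). These 6 genes were the ones with a mean of at least 100 TPM, 29 of the 42 had at least 10 TPM, and 6 were under 1 TPM.

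**Figure D1:**
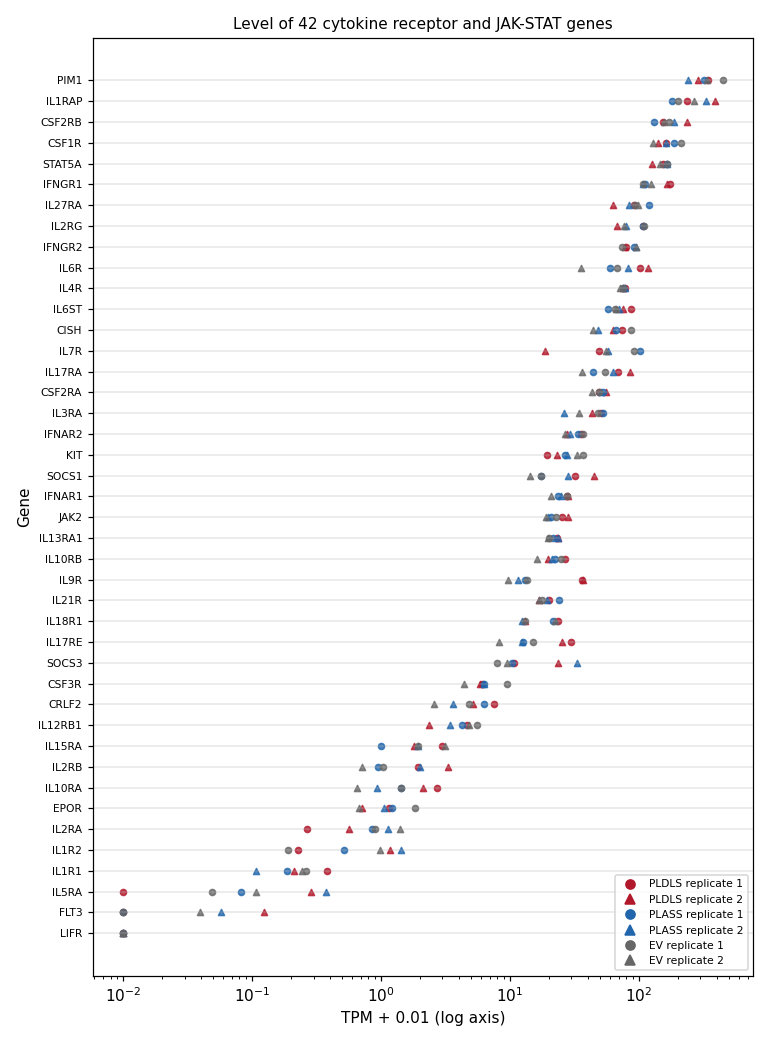
Level of each of the 42 genes in TPM plus 0.01 on a log axis, with 1 point per library (circles replicate 1, triangles replicate 2), sorted by mean. PIM1 and IL1RAP lie at the top, and LIFR, FLT3 and IL5RA lie at the bottom with values of 0 in some or all libraries.

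LIFR, FLT3 and IL5RA, receptors known from blood progenitors, eosinophils or other tissues, had almost no reads. LIFR, the leukaemia inhibitory factor receptor, had 0 reads in all 6 libraries, which allows up to 0.079 CPM in the deepest library and 0.557 CPM in the shallowest (3 reads, counting error only). FLT3, the receptor kinase of early progenitors, had 1 read in each replicate 2 library and 0 in the others. IL5RA, the specific chain of the IL-5 receptor, had 0 to 3 reads. These 3 genes and IL1R1, with 2 to 16 reads, were the 4 that did not pass the filter. Among ligand genes, CSF2 (GM-CSF), IL6, IL7 and IL9 had no read in any library and IL3 had 1 in all.

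IL9R, IL17RE and IL7R stood out in PLDLS against PLASS. The IL-9 receptor gene IL9R was 3.06-fold higher, IL17RE, a receptor chain for IL-17C, was 2.23-fold higher, and the IL-7 receptor gene IL7R was 2.49-fold lower, and all 3 passed the test once the replicate number was in the model. Without that term edgeR's quasi-likelihood test called 0 of the 38 tested genes, beside 0% of all 14634, with 7 of the 38 (18.4%) at an unadjusted p under 0.05, beside 4.93% of all genes. DESeq2 called 2 of the 38, beside 0.827% of all genes, limma-voom 0, beside 0%, and edgeR with no filter 3 of 41, beside 1.15%. Same-numbered libraries deviated together, so the replicate number was also fitted as a block. With it 2 of the 38 were higher and 1 lower, or 7.89%, beside 2.03% of all genes (1.52% higher and 0.513% lower). The median log2 difference of the 38 with the block was 0.09, beside -0.01 over all genes tested.

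IL9R, whose product joins the common gamma chain to receive IL-9, had 30.1 and 35.4 CPM with PLDLS (replicate 1, then 2, here and below), 11.1 and 10.1 CPM with PLASS and 10.5 and 9.17 CPM with EV. Both PLDLS libraries were above all 4 others, and PLASS and EV lay close together. The log2 difference from PLASS with the block was 1.62 ± 0.19 (SE), with an edgeR adjusted p of 0.00773 (9.9e-08 to 0.0258 over the settings with the block), and it was called in all 16 of these settings. Without the block the difference was the same and the adjusted p 0.138. Of its 2 RefSeq transcripts, NM_002186 took 65.6% to 79.2% of the reads in each library, and the groups overlapped in this share. IL9R lies on chromosome X from 155997696 to 156013020, in a region shared with the Y chromosome, and has pseudogene copies elsewhere, so its reads are uncertain to that extent.

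IL17RE was at 31.8 and 30.1 CPM with PLDLS, 13.7 and 14 CPM with PLASS and 15.1 and 9.95 CPM with EV. The PLDLS libraries again lay above all others. The log2 difference from PLASS with the block was 1.16 ± 0.20 (edgeR adjusted p = 0.0268, 0.000113 to 0.246 over the settings with the block). The call was lost without PLDLS replicate 1 (0.0851), PLDLS replicate 2 (0.135) or PLASS replicate 1 (0.246). IL17RA, the chain shared by the IL-17 receptors, was at 251 and 338 CPM with PLDLS, 165 and 244 with PLASS and 183 and 151 with EV. It lay above all 4 control libraries too, but at log2 0.54 ± 0.19 it was not called against PLASS (edgeR adjusted p = 0.297 with the block, but 0.00359 and 0.00879 without EV replicates 1 and 2 and 0.00317 with 2 groups only). Against EV the log2 difference of IL17RA with the block was 0.79 ± 0.20 (edgeR adjusted p = 0.0639), and it was called in 8 of 16 settings, among them DESeq2 (0.00426) and limma-voom (0.047).

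IL7R, the IL-7 receptor alpha chain of lymphoid progenitors and T cells, was at 89.6 and 34.1 CPM with PLDLS, 190 and 108 CPM with PLASS and 149 and 115 CPM with EV. Both PLDLS libraries were below all others, and replicate 2 was below replicate 1 in each group. The log2 difference from PLASS with the block was -1.32 ± 0.21 (edgeR adjusted p = 0.0207), and it was -1.08 and -1.65 within replicates 1 and 2 (on log2 of CPM plus 0.5). The call was lost without PLDLS replicate 2, at -0.98 (edgeR adjusted p = 0.0632). Without PLDLS replicate 1 it was -1.78, so the size of the difference rests on which PLDLS library is used.

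**Figure D2:**
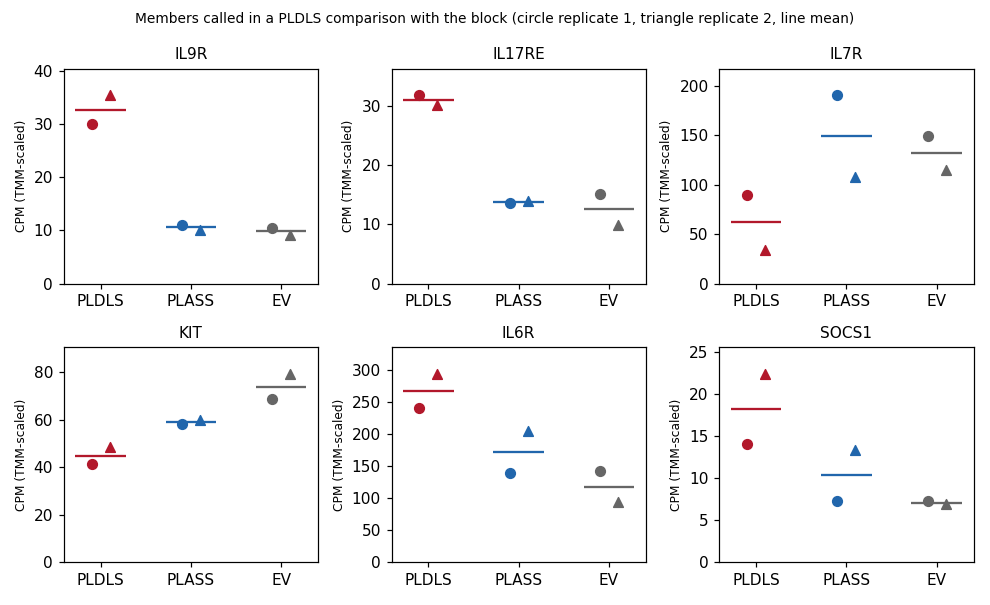
CPM of the 6 genes called in a comparison of PLDLS with the block, with 1 point per library (circle replicate 1, triangle replicate 2) and a line at the mean of each group. In IL9R and IL17RE the PLDLS libraries (30.1 and 35.4, 31.8 and 30.1) lie apart above the others, and in IL7R (89.6 and 34.1) they lie below.

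Markers of other cell types were set beside these genes. The 5 of 6 listed T and NK cell markers that were found summed to 31.7 and 26.6 TPM with PLDLS, 16.1 and 17.5 with PLASS and 17 and 18 with EV. Most of this was NKG7, at 12.8 to 26.2 TPM, while CD3D was at 2.31 TPM in PLDLS replicate 1 and 0 in the other libraries and CD3E at 0.312 to 2.41 TPM. The Langerhans and dendritic list summed to 45.7 and 40.9 TPM with PLDLS, 42.9 and 26.4 with PLASS and 37 and 27.1 with EV, with 4 of 5 markers at a mean of at least 1 TPM. Its members moved in opposite directions. CD207, the langerin gene of Langerhans cells, was at 27 and 25.3 TPM with PLDLS and at 3.28 to 5.17 TPM in the 4 control libraries. CD1A was at 5.02 and 7.25 TPM with PLDLS and 8.07 to 11.6 TPM in the controls, and CLEC9A was at 5.88 and 4.25, 16.9 and 5.01, and 17 and 6.02 TPM in the order of groups used above. The part of such cells in the receptor differences was not tested.

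Between PLDLS and EV, 6 of the 38 genes differed with the block, or 15.8%, beside 4.22% of all genes (3.23% higher and 0.998% lower). IL9R, IL17RE, IL6R and SOCS1 were higher with PLDLS and IL7R and KIT lower. Neither EV library carries the whole peptide backbone, so backbone and peptide cannot be told apart in this comparison. Without the block edgeR called 0 of the 38, beside 0.0137% of all genes, with 11 (28.9%) at an unadjusted p under 0.05, beside 7.15% of all genes. DESeq2 called 3 of the 38, beside 1.82% of all genes, limma-voom 0, beside 0.0342%, and edgeR with no filter 6 of 41, beside 2.24%. This comparison shares the PLDLS libraries with the one against PLASS, so the results are not independent. IL9R differed by log2 1.72 ± 0.18 (edgeR adjusted p = 0.00267), IL17RE by 1.31 ± 0.20 (0.00896) and IL7R by -1.20 ± 0.21 (0.0174, lost at 0.0689 without PLDLS replicate 2).

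IL6R, the ligand-binding chain for IL-6, was at 242 and 294 CPM with PLDLS, 140 and 205 with PLASS and 143 and 93.8 with EV. The PLDLS libraries were highest, and the EV libraries went the opposite way from the peptide groups between replicates. It differed from EV by log2 1.16 ± 0.24 with the block (edgeR adjusted p = 0.0321), and the call was lost without PLDLS replicate 1 (0.0699) or 2 (0.121). With the block the log2 difference was 1.71 without EV replicate 1 and 0.67 without EV replicate 2. A gene antisense to IL6R is annotated, and without strand its reads cannot be told apart. Against PLASS it was 0.64 ± 0.24 and not called (edgeR adjusted p = 0.315 with the block), but it passed when either EV library was left out (0.0012 without replicate 1, 0.004 without replicate 2). Its partner IL6ST (gp130), the shared signalling chain, was at 268 and 212 CPM with PLDLS, 177 and 213 with PLASS and 173 and 221 with EV, and these groups overlapped.

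SOCS1, the feedback inhibitor of JAK kinases, was at 14 and 22.3 CPM with PLDLS, 7.31 and 13.3 with PLASS and 7.24 and 6.91 with EV. Its PLDLS libraries lay above all 4 others, narrowly in replicate 1. The log2 difference from EV with the block was 1.28 ± 0.24 (edgeR adjusted p = 0.0232), lost without PLDLS replicate 1 (0.0754) or 2 (0.105) and after thinning all libraries to equal depth (0.0651). With the block the difference was 1.74 without EV replicate 1 and 0.89 without EV replicate 2. Against PLASS it was 0.82 ± 0.25 (edgeR adjusted p = 0.171 with the block). That comparison passed in 4 of 16 settings, with no filter (0.0494), with 2 groups only (0.00541) and without EV replicate 1 (0.00623) or 2 (0.0108).

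KIT, the stem cell factor receptor, was at 41.2 and 48.6 CPM with PLDLS, 58 and 59.7 with PLASS and 68.8 and 79.1 with EV. The 3 groups did not overlap and PLASS lay between the others. The log2 difference from EV with the block was -0.72 ± 0.14 (edgeR adjusted p = 0.0219, lost at 0.193 without PLDLS replicate 1 and 0.0845 without replicate 2), and from PLASS it was -0.40 ± 0.14 (0.26, and 0.0496 with 2 groups only). Of the 2 KIT transcripts, 5176 and 5164 bases long, the shorter, NM_001093772, took 75.8% to 100% of the reads. It encodes the form without the GNNK residues near the membrane. Shares of such similar transcripts are uncertain estimates, and the 100%, in PLDLS replicate 2, rested on 262 reads.

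**Figure D3:**
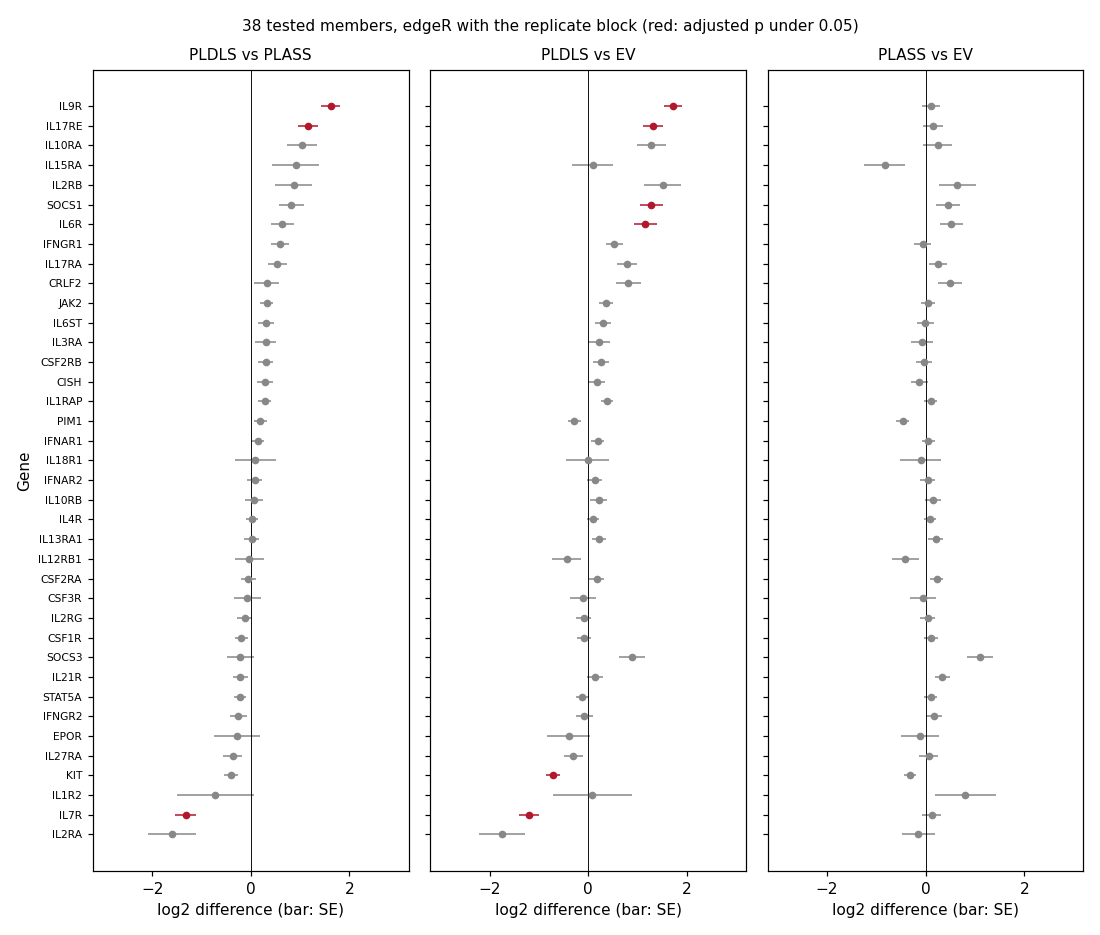
Log2 differences of the 38 tested genes in the 3 comparisons from edgeR with the replicate block (points, with bars of 1 SE), ordered by PLDLS against PLASS, with genes at an adjusted p under 0.05 in red. IL9R, IL17RE and IL7R are red in both PLDLS panels, KIT, IL6R and SOCS1 only against EV, and none is red in PLASS against EV.

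Between PLASS and EV, edgeR called 0 of the 38 genes with or without the block, beside 0.0137% and 0% of all genes, with 3 and 1 at an unadjusted p under 0.05, or 7.89% and 2.63%, beside 3.33% and 0.704% of all genes. DESeq2 and limma-voom also called 0 with or without the block. IL9R differed by log2 0.11, IL17RE by 0.15, IL7R by 0.12, KIT by -0.32, IL6R by 0.52 and SOCS1 by 0.45, all with the block. The sign for IL9R, IL17RE and IL7R turned without some single libraries. Leaving out EV replicate 1 left 1 EV library, the one with p50MX-Zeo. The members that then passed with the block were IL6R (log2 1.06), IL17RA (0.65), SOCS1 (0.90) and SOCS3 (1.61), higher with PLASS, and IL18R1 (-1.03), lower. The share of all genes that passed in that fit was also far above that over all 6 libraries. SOCS3 passed as well without PLASS replicate 1 (1.51), which left 1 PLASS library.

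Of the 38 tested genes, 17 (10 higher and 7 lower) did not overlap between PLDLS and PLASS, or 44.7%, beside 29.2% of all genes tested (14.9% higher and 14.3% lower). Against EV there were 19 (14 and 5), or 50%, beside 29.9% of all genes (16.4% and 13.4%). Between PLASS and EV there were 7 (4 and 3), or 18.4%, beside 14.7% (8.15% and 6.58%). Both PLDLS libraries lay above all 4 control libraries for 9 of the 38 genes, beside 9.98% of all genes. They lay below for 3 of the 38, beside 8.04%, a share no larger than over all genes. Those above were IL9R, IL17RE, IL17RA, IL6R, SOCS1, IL10RA, IFNGR1, IFNAR1 and JAK2, and those below were IL7R, KIT and IL2RA.

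The remaining members of that set were not called. IFNGR1 was at 135 and 124 CPM with PLDLS, 88.3 and 84.7 with PLASS and 74 and 109 with EV, at log2 0.59 ± 0.18 from PLASS with the block (edgeR adjusted p = 0.172, and 0.00221 and 0.00576 without EV replicates 1 and 2). The PLASS and PLDLS values lay well apart, while the EV libraries spread widely. IL10RA, the ligand-binding chain for IL-10, was low, at 4.07 and 3.53 CPM with PLDLS, 2.16 and 1.46 with PLASS and 1.95 and 1.11 with EV (1.04 ± 0.31 from PLASS, edgeR adjusted p = 0.171 with the block). Against EV the log2 difference of IL10RA with the block was 1.28 ± 0.30 (edgeR adjusted p = 0.0514), and it was called in 7 of 16 settings, among them no filter (0.014), the stricter filter (0.0489) and without EV replicate 1 (0.049). IL2RA, the alpha chain of the IL-2 receptor, was at 0.3 and 0.742 CPM with PLDLS, 1.2 and 1.62 with PLASS and 1.11 and 2.21 with EV (-1.60 ± 0.49, edgeR adjusted p = 0.188). IL2RA rested on 5 and 4 reads in the PLDLS libraries, so its fold is imprecise.

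None of the receptors of the myeloid growth factors GM-CSF, IL-3, M-CSF and G-CSF was called in a group comparison by edgeR over all 6 libraries with or without the block, and CSF2RB was called against EV with the block when EV replicate 1 was left out (log2 0.51, edgeR adjusted p = 0.0263). CSF2RA, the specific chain of the GM-CSF receptor, was at 38.8 and 44.9 CPM with PLDLS, 43 and 42.9 with PLASS and 35 and 39 with EV, at log2 -0.05 ± 0.15 from PLASS (edgeR adjusted p = 0.969 with the block). Its partner CSF2RB was at 293 and 493, 256 and 377, and 300 and 335 CPM in the same order (0.30 ± 0.16, 0.575). In both genes PLDLS overlapped PLASS and EV. PLASS lay above EV in CSF2RA and overlapped it in CSF2RB. IL3RA, the IL-3 specific chain, was at 36.5 and 34, 38.6 and 19.8, and 32 and 28.2 CPM. CSF1R was at 274 and 271 CPM with PLDLS, 327 and 295 with PLASS and 332 and 251 with EV (-0.19 ± 0.14, 0.746). CSF3R, the G-CSF receptor, was at 8.39 and 8.91, 8.37 and 9.49, and 11.8 and 6.63 CPM (-0.07 ± 0.28, 0.979). CSF2RA, IL3RA and CRLF2 lie in a region shared by the X and Y chromosomes, and their listed copies were summed.

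The next group holds receptors of the common gamma chain and related genes. IL2RG, that chain itself, was at 60.9 and 41.4 CPM with PLDLS, 63.8 and 47.3 with PLASS and 57.1 and 50.3 with EV. Its log2 difference from PLASS with the block was -0.12 ± 0.15 (edgeR adjusted p = 0.896). So the level of the shared chain overlapped between groups while IL9R rose and IL7R fell against both controls with the block. IL4R and IL13RA1, which together form an IL-4 and IL-13 receptor, differed from PLASS by log2 0.03 and 0.02 with the block, and neither was called. IL2RB, the beta chain of the IL-2 and IL-15 receptors, was at 3.12 and 5.94 CPM with PLDLS, 1.54 and 3.41 with PLASS and 1.53 and 1.27 with EV. Its log2 difference with the block was 0.87 ± 0.37 from PLASS (edgeR adjusted p = 0.417, called in 0 of 16 settings) and 1.51 ± 0.37 from EV (0.0622). The latter was called in 6 of 16 settings, among them limma-voom (0.0459), edgeR with no filter (0.00635) and without EV replicate 1 (2.27, 0.00306). CRLF2, the TSLP receptor, was at 1.99 to 5.09 CPM, IL15RA, the IL-15 specific chain, at 0.721 to 2.54 CPM and IL21R, the IL-21 receptor, at 33.1 to 49.3 CPM over the 6 libraries. None of these was called. The group has 10 genes, with IL13RA1 and CRLF2 counted as related. Of these 10, 1 was called higher and 1 lower against each control with the block, or 20%. Of all genes 2.03% were called against PLASS and 4.22% against EV.

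IL27RA, the specific chain for IL-27, was at 111 and 86.5 CPM with PLDLS, 148 and 108 with PLASS and 107 and 136 with EV, at log2 -0.37 ± 0.19 from PLASS (edgeR adjusted p = 0.561 with the block, and 0.0412 without EV replicate 1). The values overlapped. IL12RB1, a chain of the IL-12 receptor, was at 2.04 to 4.09 CPM, and EPOR, the erythropoietin receptor, at 0.718 to 1.63 CPM, and neither was called. None of the 6 interferon and IL-10 receptor chains was called in the 3 group comparisons by edgeR over all 6 libraries with the standard filter, with or without the block, while IFNGR1 and IL10RA passed in other settings given above. IFNAR1 and IFNAR2, which form the type I interferon receptor, were at 54.6 to 64.8 and 24.9 to 32.6 CPM, and IFNGR2 and IL10RB at 58.5 to 93.1 and 14.2 to 20.5 CPM. IFNAR2 and IL10RB overlap a readthrough gene, so their counts are uncertain. The share of IFNAR2 reads on transcript NM_001289125 was 59.3% in PLDLS replicate 1 and 0 in EV replicate 1, which shows how unstable transcript shares can be in these estimates.

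Of the STAT targets, PIM1 was at 374 and 341 CPM with PLDLS, 352 and 278 with PLASS and 455 and 415 with EV, at log2 0.19 ± 0.13 from PLASS (edgeR adjusted p = 0.716 with the block). Both EV libraries lay above the peptide libraries. CISH, with the 4 STAT sequences printed above, was at 59.9 and 57.9, 55 and 41.9, and 66.2 and 40.6 CPM in the same order of groups. Its PLDLS libraries lay above the PLASS libraries, and EV overlapped both (0.29 ± 0.17 from PLASS, edgeR adjusted p = 0.635 with the block). JAK2 was at 50 and 52.1, 42.5 and 39.2, and 38.9 and 40.9 CPM (0.32 ± 0.14, 0.453). STAT5A was at 286 and 260, 310 and 329, and 284 and 311 CPM (-0.22 ± 0.13, 0.626). STAT5A is a close paralogue of the neighbouring STAT5B, and reads of the pair could be split wrongly.

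SOCS3, IL1RAP, CSF2RB, IL1R2 and IL7R differed between the replicate numbers, and of these IL7R was also called in both PLDLS comparisons with the block. With group in the model, 5 of the 38 genes differed between replicate 2 and replicate 1, or 13.2%, beside 17.4% of all genes (7.83% higher and 9.6% lower). IL7R was lower and the other 4 were higher, and the share is no larger than the background. SOCS3, the feedback inhibitor of gp130 receptors, had 12.2 and 29.9 CPM with PLDLS, 11.8 and 39.6 with PLASS and 8.32 and 12.1 with EV. It was higher in replicate 2 in all 3 groups, by log2 1.20 ± 0.22 (edgeR adjusted p = 0.0114), and its difference of PLDLS from PLASS was -0.21 ± 0.27 with the block. Against EV, SOCS3 with PLDLS was not called over all 6 libraries (edgeR adjusted p = 0.127 with the block), but it was without EV replicate 1 (1.43, 0.000589) or PLASS replicate 1 (0.0284) or 2 (0.0262).

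IL1RAP was at 371 and 526, 275 and 483, and 270 and 430 CPM in the same order, and rose by log2 0.66 ± 0.11 in replicate 2 (edgeR adjusted p = 0.00847, lost at 0.0566 and 0.0516 without PLASS replicates 1 and 2). CSF2RB rose by 0.49 ± 0.13 (0.0373, lost at 0.138 to 0.164 without any 1 of the 4 peptide libraries) and IL7R fell by 0.83 on the log2 scale (0.0168). IL1R2, the decoy receptor for IL-1, was at 0.12 and 0.557, 0.288 and 0.73, and 0.079 and 0.608 CPM. It also passed (2.04 ± 0.57, 0.0411) but rested on 2 to 11 reads per library, and the call was lost without any 1 library (0.0784 to 0.198). Markers of mast cells, basophils and eosinophils moved with the same number. Their 6 genes summed to 161 to 176 TPM in the replicate 1 libraries and 511 to 643 TPM in replicate 2, with CLC, the Charcot-Leyden crystal gene, at 100 to 120 and 311 to 466 TPM, and PRG2, an eosinophil granule gene, at 21 to 36.4 and 98.4 to 140 TPM. The mast cell tryptase gene TPSAB1 did not follow, at 11.1 and 10.7, 7.74 and 12, and 8.07 and 4.67 TPM, and CPA3 was at 0 in 5 of the 6 libraries. The part of this in the receptor differences was not tested, and no label says what the number marks.

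**Figure D4:**
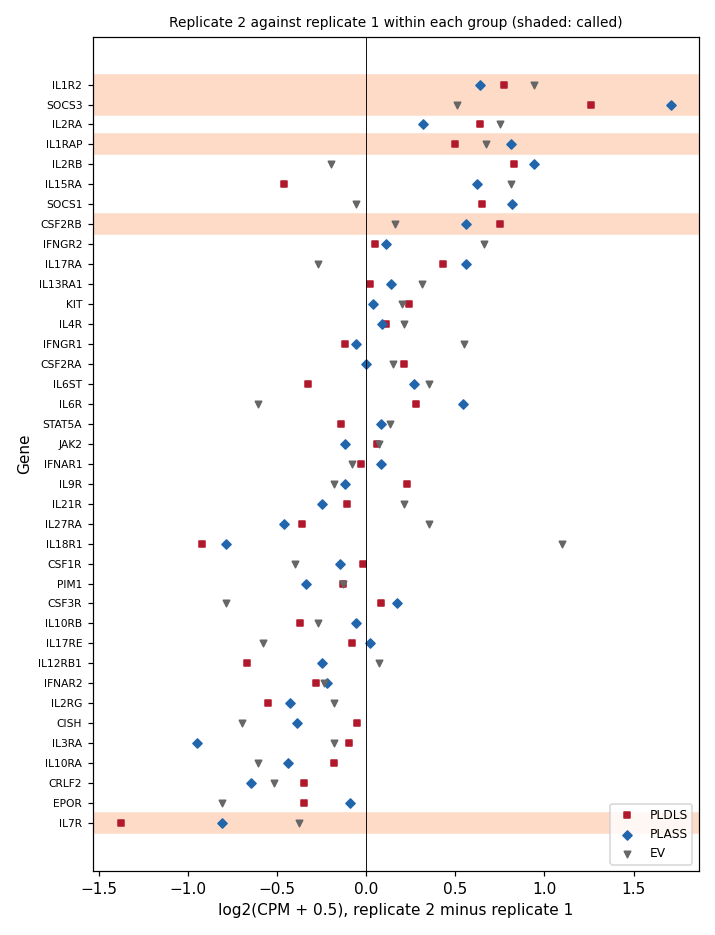
Log2 of CPM plus 0.5 in replicate 2 minus replicate 1 for the 38 tested genes, with 1 point for each group and shading where edgeR called the replicate number. SOCS3, IL1RAP, CSF2RB and IL1R2 lie above 0 and IL7R below 0 in all 3 groups, while IL18R1 lies at -0.92 and -0.79 in the peptide groups and at 1.10 in EV.

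IL18R1, the IL-18 receptor, showed how far the EV libraries differ. It was at 32.8 and 17.1 CPM with PLDLS, 30.4 and 17.4 with PLASS and 15.9 and 34.5 with EV. The replicate order was turned in EV, and the log2 difference of PLDLS from EV with the block was -0.97 without EV replicate 1 and 1.00 without EV replicate 2, each called by edgeR (adjusted p = 0.00259 and 0.00654). Its partner IL18RAP was at 19.5 and 17.6, 7.5 and 10.3, and 5.24 and 15.6 CPM (1.15 ± 0.35 from PLASS, edgeR adjusted p = 0.18 with the block). The EV vectors differ, so vector and replicate cannot be told apart there.

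Other genes of the pathway were taken from 3 lists. Of 34 other JAK-STAT genes 33 were tested, and edgeR called 0 in the 3 group comparisons with the block. Of all genes 2.03% were called in PLDLS against PLASS, 4.22% in PLDLS against EV and 0.0137% in PLASS against EV. In PLDLS against PLASS 4 of the 33 (12.1%) had an unadjusted p under 0.05, beside 11.5% of all genes. The median log2 difference there was -0.03, beside -0.01 over all genes tested. PIM2, a kinase of the PIM family, was at 37.2 and 68.8 CPM with PLDLS, 26.3 and 31.2 with PLASS and 30.9 and 38 with EV (0.82 ± 0.19, edgeR adjusted p = 0.0774), and CCND3, a cyclin gene, at 305 and 390, 221 and 251, and 252 and 231 CPM (0.55 ± 0.15, 0.127). The PLDLS libraries of CCND3 lay above all controls. With the replicate number 5 of these genes were higher and 3 lower, or 24.2%, beside 17.4% of all genes (7.83% higher and 9.6% lower), among them the kinase genes PIM3 (1.42 ± 0.12, edgeR adjusted p = 0.000866) and JAK3 (-0.86 ± 0.11, 0.00367), the adaptor gene SH2B3 (0.66 ± 0.11, 0.00849) and the exchange factor gene SOS1 (-0.56 ± 0.10, 0.0102).

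Of 31 ligand genes 13 were tested. CSF1, which encodes M-CSF, the ligand of CSF1R, was at 0.539 and 1.67 CPM with PLDLS, 1.49 and 6.89 with PLASS and 0.79 and 3.98 with EV. The groups overlapped across replicate numbers, and PLDLS was lowest within each number. It was lower than with PLASS by log2 -1.77 ± 0.36 with the block (edgeR adjusted p = 0.0458, 0.00595 to 0.358 over the settings with the block, called in 9 of 16), from 9 reads in each PLDLS library. It was also higher in replicate 2 (2.16 ± 0.26, 0.00287), as was KITLG, the ligand of KIT (0.63 ± 0.16, 0.0337). Of 21 other cytokine receptor genes 11 were tested. With the block edgeR called 0 of them in the group comparisons, beside the shares of all genes given above. In PLDLS against PLASS 2 of the 11 (18.2%) had an unadjusted p under 0.05, beside 11.5% of all genes. With the replicate number 3 were lower and 0 higher, or 27.3%, beside 17.4% of all genes. Those lower included the IL-11 receptor gene IL11RA (-1.81 ± 0.49, edgeR adjusted p = 0.0383, from 0 to 56 reads per library) and the interferon lambda receptor gene IFNLR1 (-0.59 ± 0.16, 0.0381).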

How the data were processed

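Poly-A RNA of 6 MUTZ3 libraries was analysed, 2 each of PLDLS, PLASS and EV. The submitters' processing notes name bcl2fastq 1.8.4, Salmon 0.3.1 and hg38. The deposited estimated counts are Salmon's reads per RefSeq transcript, not normalized, per the file headers. The deposited TPM were summed per gene, and the deposited effective length only served as an offset. For annotation release and read layout the sources used here give nothing. Libraries were not stranded per the labels.

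Of 69004 transcripts 68201 were named from RefSeq (GRCh38.p14) and 403 from GENCODE. Reads without a gene name were 0.067% to 0.0893% and were left out. Gene sums were rounded and tested with edgeR 4.0.16 (R 4.3.3) by its quasi-likelihood test, with TMM, filterByExpr, a term per group over 6 libraries and a Benjamini-Hochberg threshold of 0.05, which left 3 residual degrees of freedom. Replicate differences correlated at 0.70, 0.541 and 0.616 between groups over 10581 genes, so the number was also fitted as a block (2 residual degrees of freedom). The pairing is inferred from these values and the tables' experiment numbers, not from a label. Replicates of a group differed above sampling noise. Members, lists and the rule for named genes (called members, the 8 smallest p with the block, the highest level in each role, both GM-CSF receptor chains) were chosen with earlier results of these data known. Alternatives were DESeq2 1.42.0, limma-voom 3.58.1, other scalings, filters, a length offset, 2 groups only, thinning and leaving out libraries.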

Additional observations from a re-analysis of the deposited data

How the results depend on the processing

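Without the replicate block, the count of called genes among the 38 was 0 in each group comparison for edgeR with other scalings, a stricter filter, the length offset, thinning, 2 groups only or any library left out, and for limma-voom. It was 2 by DESeq2 and 3 with no filter for PLDLS against PLASS, and 3 and 6 against EV. With the block, PLDLS against PLASS gave 3 genes with edgeR, DESeq2, limma-voom, DESeq2 size factors, upper-quartile scaling, the stricter filter, the length offset and thinning, 4 with no filter and 9 with 2 groups only. PLDLS against EV gave 6 with edgeR, DESeq2 size factors, upper-quartile scaling, the length offset and thinning, 7 with DESeq2 or the stricter filter, 9 with limma-voom, 11 with no filter and 10 with 2 groups only. PLASS against EV gave 1 with no filter (SOCS3) and 0 with the other tools, scalings, filters and depths. Leaving out 1 library with the block gave 1 to 8 genes for PLDLS against PLASS, 2 to 13 against EV and 0 to 5 for PLASS against EV. Each highest count came without EV replicate 1, and for PLDLS the lowest came without PLDLS replicate 2. For the replicate number this range was 2 to 12 beside 5. Without EV replicate 1 the share of all genes called with the block was also above that over all 6 libraries. This held in each group comparison and for the replicate number. Without PLDLS replicate 2 the share was below it in both PLDLS comparisons. With 2 groups only and the block, 7.76% of all genes were called in PLDLS against PLASS, beside 2.03% over all 6 libraries. In PLDLS against EV these shares were 5.84% and 4.22%. The cause was not tested.

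Over all 38 tested genes and all settings with the block, the sign turned in at least 1 setting for 13 genes in PLDLS against PLASS, 14 in PLDLS against EV and 21 in PLASS against EV. The turned value was called only for IL18R1 in PLDLS against EV (1.00 without EV replicate 2, edgeR adjusted p = 0.00654, beside -0.01). The values that follow cover the genes named for their calls, p or level. Without the block, leaving out 1 library moved PLDLS against PLASS from -0.16 to 0.06 for CSF2RA, -0.12 to 0.64 for CSF2RB, -0.14 to 0.04 for CSF3R, -0.43 to 0.12 for IL2RG, -1.97 to 0.20 for IL1R2, -0.11 to 0.70 for IL1RAP and -1.08 to 0.81 for SOCS3. It moved PLASS against EV from -0.29 to 0.50 for IL7R and -0.13 to 0.48 for IL17RE. Of these genes, with the block, PLDLS against PLASS turned for CSF2RA (0.02 without PLDLS replicate 1, 0.05 without PLASS replicate 1), CSF3R (0.17 without PLDLS replicate 1, 0.22 without PLASS replicate 2) and SOCS3 (0.24 without PLASS replicate 2). PLASS against EV turned for IL7R (-0.21 without EV replicate 1), IL9R (-0.02 without EV replicate 2) and IL17RE (-0.04 without PLASS replicate 2, -0.12 without EV replicate 2). Depth limits IL2RA, IL1R2, EPOR, IL15RA, CSF1 and IL11RA, among others, with under 10 reads in some libraries.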
